A study of Homo sapiens with 27 samples.

Results

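The genes described here are 10 feedback and output genes of the WNT pathway: NKD1, NKD2, AXIN2, LEF1, TCF7, DKK1, DKK3, RNF43, ZNRF3 and SP5. They were taken by symbol from 3 tables of read counts, in which all 10 were listed, out of 27546 symbols listed in any table and 20089 listed in all of them. The group was chosen by the measured counts of NKD2 in PC3 and 22Rv1, and the other genes joined it as pathway members. NKD2 is therefore only described in those lines, and counts of changed members are given over the other 9. The tables hold bulk RNA sequencing of PC3, DU145 and 22Rv1 cells, 3 established lines grown from human prostate cancers. Cells carried either control gRNA 1 (genotype labelled WT) or a guide against RIPK2, the kinase that relays signals from NOD1 and NOD2 (genotype labelled RIPK2 knockout). The RIPK2 guides were gRNA 1 and gRNA 10 in 22Rv1, and gRNA 2 and gRNA 10 in DU145 and in PC3. Each of the 9 groups had 3 libraries. All groups, controls included, carried a guide RNA. The labels do not say if the edited cells were clones or pools, or if the 3 libraries of a group came from separate cultures, so p-values measure the spread between these libraries only.

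In canonical WNT signalling, a secreted WNT protein binds a Frizzled receptor and an LRP co-receptor. This recruits Dishevelled, which stops the AXIN and APC destruction complex from marking beta-catenin for degradation, and beta-catenin then works with the TCF and LEF factors on DNA to switch on target genes. Several of those targets feed back. AXIN2 rebuilds the destruction complex, NKD1 and NKD2 bind Dishevelled, RNF43 and ZNRF3 remove Frizzled from the membrane, and DKK1 blocks LRP from outside the cell. LEF1, TCF7 and SP5 are transcription factors at the output end. In prostate cancer the pathway is known for being active in a subset of tumours, often advanced ones.

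Totals ran from 17958558 to 20650819 counts per library. A count of 0 allows up to 3 counts, which is 0.145 to 0.167 CPM (counts relative to the total of a library, here without TMM scaling) depending on the library, for counting error only. RIPK2 mRNA had a lower mean than the control with every guide, by log2 fold changes between -0.29 and -1.84. The smallest, with gRNA 10 in DU145, had an edgeR adjusted p of 0.0614. In 2 groups replicate 3 stands apart from replicates 1 and 2 by the Pearson r of log2 CPM. In 22Rv1 gRNA 1 it had r of 0.988 with each, against 0.999 between them, and 16.7% of its counts in mitochondrial genes. In DU145 gRNA 2 it had r of 0.991 and 0.989, against 0.997 between them. Its mitochondrial share there, 2.89%, was near those of the DU145 gRNA 10 libraries (2.46% to 2.77%). Some results that rest on either library are also given without it, and the others include it. Of the luminal prostate markers, KLK3 was at 17.9 CPM or more and KLK2 at 85.2 CPM or more in every 22Rv1 library. KLK3 and KLK2 were at 1 count or fewer in every DU145 and PC3 library. Marker levels are CPM without TMM scaling.

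Promoter sequence is shown for 3 members, to set a gene with many TCF/LEF-type motifs beside genes with few or none. The motif searched was CTTTGA on either strand (TCAAAG on the other), in the 250 bases before an annotated start. RefSeq promoters (GRCh38.p14) were found for 6 of the 10 members, in 8 windows. Over 35116 windows of this length, 11.21% held at least 1 match and 23 windows (0.065%) held 3 or more. SP5 held 3, with first bases at -147, -109 and -83 from the start, and DKK1 held 2, at -149 and -95. NKD2 held none in a window of 75.6% G and C, where the median over all windows was 58.0%. The other windows, of LEF1, TCF7 and RNF43, held none either. A match is a string of letters and shows no binding. Capitals mark the motif, and each sequence runs in the direction of its gene (all on the plus strand).
SP5, chr2:170715087-170715336: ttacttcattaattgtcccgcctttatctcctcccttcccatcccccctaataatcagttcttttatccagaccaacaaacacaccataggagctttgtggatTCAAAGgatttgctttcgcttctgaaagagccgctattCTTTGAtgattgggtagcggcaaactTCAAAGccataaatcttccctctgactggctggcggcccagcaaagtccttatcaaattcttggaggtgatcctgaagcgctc
DKK1, chr10:52314031-52314280: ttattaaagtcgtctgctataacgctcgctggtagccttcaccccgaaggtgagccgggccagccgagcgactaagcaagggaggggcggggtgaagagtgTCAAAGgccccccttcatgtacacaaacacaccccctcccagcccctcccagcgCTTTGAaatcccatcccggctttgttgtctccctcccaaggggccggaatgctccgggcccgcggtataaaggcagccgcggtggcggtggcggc
NKD2, chr5:1008552-1008801: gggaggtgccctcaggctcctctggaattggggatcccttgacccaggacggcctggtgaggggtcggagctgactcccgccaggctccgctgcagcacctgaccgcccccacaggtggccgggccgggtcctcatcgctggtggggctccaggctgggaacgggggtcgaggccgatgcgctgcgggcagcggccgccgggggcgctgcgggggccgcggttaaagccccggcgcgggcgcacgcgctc

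NKD2, the Dishevelled-binding inhibitor around which the group was picked, lies on chromosome 5 at 1008829 to 1038943 of GRCh38, plus strand (GENCODE 29, protein coding). In PC3 it was close to lost with both RIPK2 guides. The 3 control libraries held 196, 194 and 172 counts, against 1, 2 and 1 with gRNA 2 and 3, 1 and 3 with gRNA 10. No knockout library came near a control library. With so few counts the fold carries a wide counting interval: 138 times lower with gRNA 2 (95% interval 53.6 to 508) and 79.6 times lower with gRNA 10 (38.4 to 199). In bulk RNA, fewer cells expressing a gene and less RNA per cell cannot be told apart.

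In 22Rv1 the same gene was higher with both guides. Control libraries held 53, 39 and 59 counts, gRNA 1 libraries 86, 99 and 293, and gRNA 10 libraries 260, 225 and 226. Every knockout library was above every control library, but the gRNA 1 group was split, with replicate 3 far above the other pair. The log2 fold changes were 1.75 with gRNA 1 and 2.18 with gRNA 10. Without replicate 3, one of the libraries that stand apart, the gRNA 1 value was 0.87. These 22Rv1 and PC3 values chose the gene and carry no test.

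DU145 is the line whose NKD2 values did not enter the choice. Its control libraries held 522, 499 and 525 counts, gRNA 2 libraries 839, 694 and 388, and gRNA 10 libraries 478, 621 and 616. Both knockout groups overlapped the control. On the log2 scale gRNA 2 was at 0.38 and gRNA 10 at 0.20, each with an SE of 0.20, and the edgeR adjusted p-values were 0.17 and 0.45. The low gRNA 2 library was replicate 3, the other one that stands apart. Without it the gRNA 2 value was 0.60, with an edgeR adjusted p of 0.000772, so NKD2 passed the test as higher there. The gRNA 10 value passed it only in a fit of the compared groups alone (edgeR adjusted p 0.0431).

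**Figure D1:**
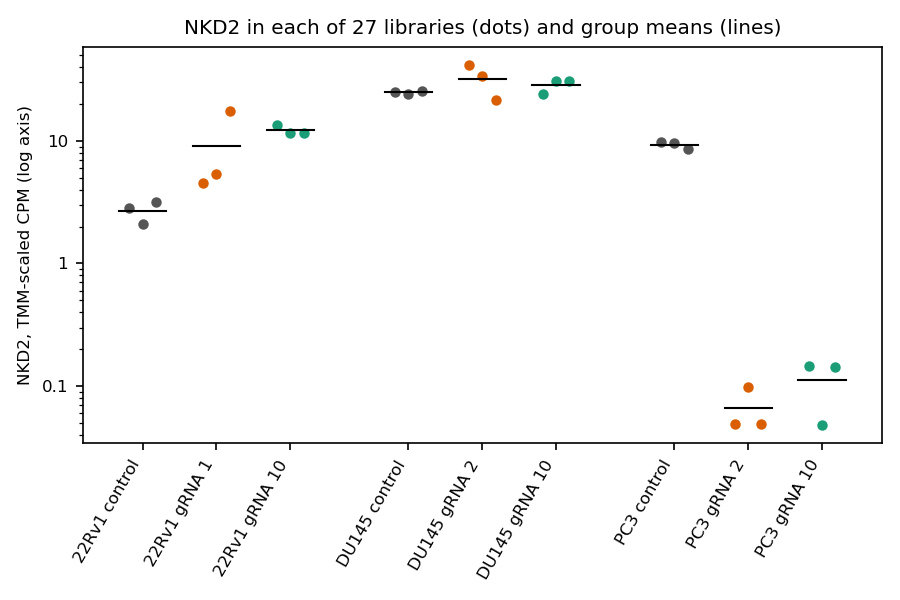
NKD2 in each library (dots, TMM-scaled CPM on a log axis) with the mean of each group of 3 (lines). The 6 PC3 knockout libraries lie far below their controls, the 22Rv1 knockout libraries above theirs, and the DU145 groups overlap.

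Across the 9 groups, ordered by mean CPM (scaled within each line, so levels between lines are approximate), NKD2 was highest in DU145: 32.3 ± 10.2 with gRNA 2, 28.6 ± 3.95 with gRNA 10 and 24.9 ± 0.866 in the control (SD, n = 3). These groups overlapped one another. 22Rv1 gRNA 10 followed at 12.2 ± 1.04, then PC3 control at 9.32 ± 0.681 and 22Rv1 gRNA 1 at 9.11 ± 7.20. The wide range of 22Rv1 gRNA 1, from 4.57 to 17.4 CPM, spanned that of PC3 control (8.54 to 9.78) and of 22Rv1 gRNA 10 (11.6 to 13.4), and lay above that of 22Rv1 control. 22Rv1 control came next at 2.69 ± 0.544. The PC3 knockout groups were last, at 0.112 ± 0.0557 with gRNA 10 and 0.0657 ± 0.0284 with gRNA 2, both under the level that a count of 0 allows, and their libraries overlapped.

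Of the genes beside NKD2, ZDHHC11, BRD9, TRIP13 and SLC12A7 kept their transcripts in PC3. Upstream lie ZDHHC11, BRD9, a bromodomain subunit of a SWI/SNF complex, and TRIP13, a mitotic checkpoint ATPase. SLC12A7, a potassium chloride cotransporter, lies 11.4 kb downstream. In PC3, SLC12A7 was at 127 ± 0.492 CPM in the control, 119 ± 5.14 with gRNA 2 and 227 ± 4.03 with gRNA 10. TRIP13 was at 58.2 ± 0.643, 72.7 ± 2.66 and 72.9 ± 1.21 CPM, and BRD9 at 103 ± 3.08, 109 ± 3.22 and 91.5 ± 3.33. ZDHHC11 was at 16.6 ± 1.20, 24.1 ± 1.30 and 17.7 ± 1.66. None of these was near 0 in any PC3 library. The other 2 downstream neighbours were low in PC3. MIR4635, inside SLC12A7, had 3 counts or fewer in every PC3 library. TERT, the telomerase catalytic subunit, was at 0.431 ± 0.0767 CPM in the control, 0.148 ± 0.0985 with gRNA 2 and 0.450 ± 0.156 with gRNA 10. Over the 26 genes tested within 5 Mb of NKD2 in PC3 (a distance set after the values were seen), the median log2 fold change was -0.08 with gRNA 2 and 0.06 with gRNA 10. Of these genes, 9 were called higher and 11 lower with gRNA 2, and 9 higher and 7 lower with gRNA 10.

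**Figure D2:**
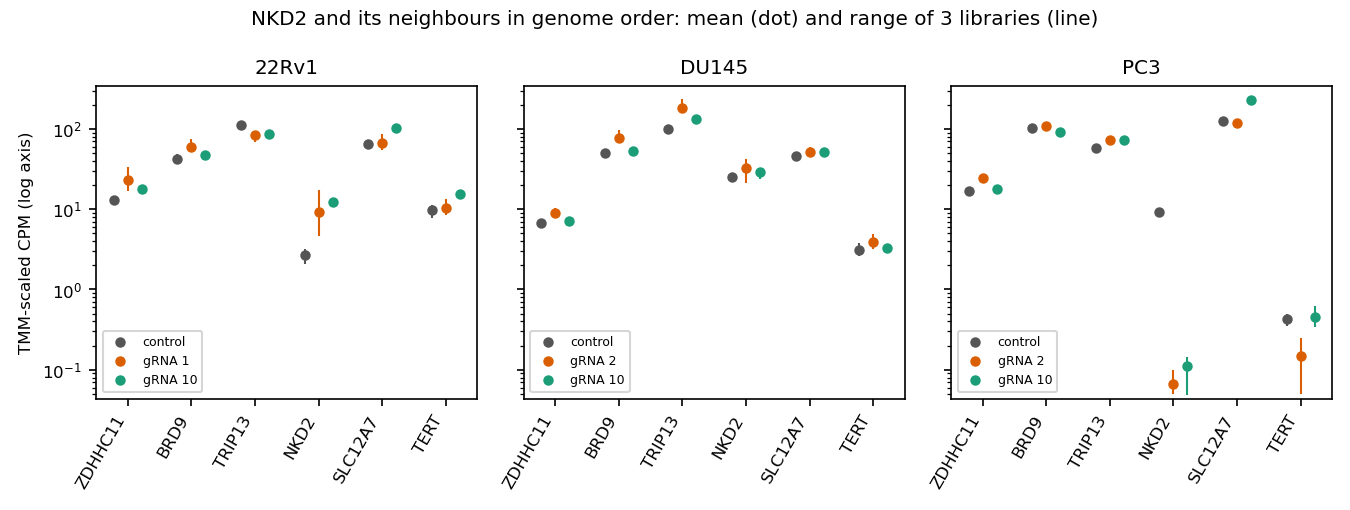
NKD2 and its neighbours in genome order, as the mean (dot) and range (line) of the 3 libraries of a group, in TMM-scaled CPM on a log axis, for each line. In PC3, NKD2 drops out between TRIP13 and SLC12A7, which stay at or above 57.5 CPM.

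NKD1, the paralogue of NKD2 (chromosome 16, 50548330 to 50649249), was expressed mainly in DU145. There the control libraries held 118, 116 and 108 counts and gRNA 10 libraries 325, 392 and 372. All gRNA 10 libraries were above all others. NKD1 rose with gRNA 10 by 1.72 on the log2 scale (SE 0.31, edgeR adjusted p 0.00156). With gRNA 2 the counts were 102, 148 and 35, on both sides of the control, with a log2 value of -0.20 and an edgeR adjusted p of 0.667. Without replicate 3, the library that stands apart, the value turned to 0.16 (edgeR adjusted p 0.412). The guides differed from each other (log2 difference -1.93, SE 0.32, edgeR adjusted p 0.00105). RIPK2 itself was at 34.7 ± 1.51 CPM with gRNA 10 in DU145 against 42.4 ± 2.67 in the control, the smallest reduction of the 6 groups. In 22Rv1, NKD1 had between 0 and 4 counts in every library. In PC3 it had 2, 0 and 0 counts in the control, 10, 7 and 11 with gRNA 2, and 2, 3 and 5 with gRNA 10. The ratio of summed PC3 counts was 14.3 for gRNA 2 (95% counting interval 3.60 to 124) and 5.04 for gRNA 10 (1.07 to 47.3). NKD1 did not pass the filter on low counts in 22Rv1 or PC3 and was not tested there.

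AXIN2 (chromosome 17, 65528563 to 65561647), the destruction complex scaffold and a classical readout of the pathway, moved in opposite directions in 22Rv1 and in the other lines. In 22Rv1 it had 82, 89 and 95 counts in the control, 52, 60 and 42 with gRNA 1 and 62, 64 and 69 with gRNA 10. All knockout libraries were below all controls. AXIN2 fell by 0.74 with gRNA 1 (SE 0.16, edgeR adjusted p 0.00347) and by 0.50 with gRNA 10 (SE 0.16, edgeR adjusted p 0.0265) on the log2 scale. The gRNA 10 call is thin: 7 of 15 alternatives lost it, DESeq2 among them, with adjusted p-values from 0.00622 to 0.10 over all alternatives.

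In DU145, AXIN2 had 22, 28 and 24 counts in the control, 58, 51 and 28 with gRNA 2 and 78, 78 and 89 with gRNA 10. The gRNA 10 libraries were clear of both other groups. AXIN2 rose by 0.96 with gRNA 2 (SE 0.25, edgeR adjusted p 0.0142) and by 1.78 with gRNA 10 (SE 0.24, edgeR adjusted p 0.000242). The gRNA 2 call was lost without control replicate 1 or control replicate 3 (edgeR adjusted p 0.0605 and 0.0501). In PC3 the counts were 31, 55 and 44 in the control, 118, 120 and 137 with gRNA 2 and 69, 91 and 56 with gRNA 10. AXIN2 rose by 1.51 with gRNA 2 (SE 0.17, edgeR adjusted p 1.99e-08) and by 0.68 with gRNA 10 (SE 0.19, edgeR adjusted p 0.00267). The lowest gRNA 10 library, at 2.69 CPM, lay just under the highest control, at 2.73 CPM.

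RNF43 and ZNRF3 are membrane ubiquitin ligases that remove Frizzled receptors. RNF43 (chromosome 17, 58352500 to 58417595) was highest in 22Rv1, with 686, 661 and 671 counts in the control, 1486, 1620 and 1266 with gRNA 1, and 817, 769 and 839 with gRNA 10. Both knockout groups were above the control, gRNA 1 by far the more. RNF43 rose by 1.16 with gRNA 1 (SE 0.09, edgeR adjusted p 3.77e-06), while with gRNA 10 it was at 0.21 and missed the threshold (SE 0.09, edgeR adjusted p 0.0889). Without the gRNA 1 library that stands apart, which shares the fit, the gRNA 10 value passed the test (0.22, edgeR adjusted p 0.0208). In DU145 it went the other way, from 92, 81 and 88 counts to 47, 40 and 23 with gRNA 2 and 40, 37 and 56 with gRNA 10. No DU145 knockout library reached the control. RNF43 fell by 1.17 with gRNA 2 (SE 0.24) and by 0.92 with gRNA 10 (SE 0.23) on the log2 scale, and the edgeR adjusted p-values were 0.00402 and 0.00975. PC3 had 4 or fewer RNF43 counts in every library.

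ZNRF3 (chromosome 22, 28883592 to 29057487) was expressed in all 3 lines. In 22Rv1 it had 731, 682 and 748 counts in the control and 479, 488 and 348 with gRNA 1, a fall of 0.67 on the log2 scale (SE 0.11, edgeR adjusted p 0.000573). With gRNA 10 it had 644, 701 and 710 counts, just under the control in CPM, with a log2 value of -0.13 and an edgeR adjusted p of 0.374. RNF43 and ZNRF3 thus moved in opposite directions with 22Rv1 gRNA 1. In DU145 all groups held 428 to 545 counts and neither guide passed the test. In PC3 the control had 380, 386 and 338 counts and gRNA 10 had 405, 458 and 441, a rise of 0.19 (SE 0.07, edgeR adjusted p 0.0212) that 4 of 15 alternatives lost. The 83 genes tested within 5 Mb of ZNRF3 had a median of 0.31 there, above its own value, and 55 of them were called higher. PC3 gRNA 2, at 341 to 406 counts, overlapped the control.

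DKK1 (chromosome 10, 52314296 to 52318042), the secreted LRP blocker, was by far the most abundant member in PC3. The PC3 control held 14987, 14644 and 15174 counts, gRNA 2 held 29560, 29171 and 29040, and gRNA 10 held 21102, 19831 and 21232. The groups were fully separate, with gRNA 2 highest. DKK1 rose by 0.96 with gRNA 2 (SE 0.03, edgeR adjusted p 1.05e-20) and by 0.43 with gRNA 10 (SE 0.03, edgeR adjusted p 1.60e-12). In 22Rv1 the control had 229, 203 and 190 counts and gRNA 1 had 82, 65 and 94, and DKK1 fell by 1.31 on the log2 scale (SE 0.17, edgeR adjusted p 0.000120). 22Rv1 gRNA 10, at 198, 190 and 213 counts, overlapped the control, and the guides differed from each other (log2 difference -1.21, SE 0.17, edgeR adjusted p 0.000310). DU145 control libraries had 1370 to 1496 counts, gRNA 2 had 1129 to 1469 and gRNA 10 had 1320 to 1463. Those log2 values were -0.10 and -0.02, each with an SE of 0.09, and neither passed the test (edgeR adjusted p 0.416 and 0.878).

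DKK3 (chromosome 11, 11963106 to 12009769), a divergent member of the dickkopf family, was expressed mainly in DU145. There it had 375, 365 and 419 counts in the control, 330, 281 and 123 with gRNA 2 and 217, 238 and 232 with gRNA 10. Every knockout library was below every control library. DKK3 fell by 0.70 on the log2 scale with gRNA 10 (SE 0.24, edgeR adjusted p 0.0411), a call lost in 7 of 15 alternatives (adjusted p up to 0.123). With gRNA 2 DKK3 was at -0.60, which missed the threshold (SE 0.24, edgeR adjusted p 0.0807). Without the gRNA 2 library that stands apart it was -0.31, with an edgeR adjusted p of 0.0296. The 52 genes tested within 5 Mb of DKK3 had median log2 fold changes of -0.33 and -0.35 with these guides, 21 and 22 of them called lower. The part of the surrounding region in the DKK3 values was not tested. In 22Rv1 DKK3 had 3 counts or fewer in every library, and in PC3 1, 1 and 0 in the control, 3, 4 and 4 with gRNA 2 and 4, 3 and 3 with gRNA 10.

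LEF1 and TCF7 encode DNA-binding partners of beta-catenin and are themselves WNT targets. LEF1 (chromosome 4, 108047545 to 108168956) was 5.09 times higher with gRNA 1 and 5.18 times higher with gRNA 10 in 22Rv1. The control had 52, 58 and 59 counts, gRNA 1 had 309, 270 and 255, and gRNA 10 had 310, 289 and 312. The knockout groups were far above the control and overlapped each other. LEF1 rose by 2.35 with gRNA 1 (SE 0.12, edgeR adjusted p 1.78e-07) and by 2.37 with gRNA 10 (SE 0.12, edgeR adjusted p 1.62e-07), and none of the 15 alternatives ended either call. In PC3 LEF1 had 0 counts in all 3 control libraries, 15, 26 and 23 with gRNA 2 and 5, 9 and 1 with gRNA 10. Taking the limit of 3 counts per library for the control, LEF1 was at least 7.21 times higher with gRNA 2 and at least 1.65 times higher with gRNA 10. The edgeR adjusted p-values were 7.17e-08 and 0.000972. LEF1 passed the filter on low counts in PC3 only through the gRNA 2 group, where it is high, so these calls carry little weight, and 1 gRNA 10 library had a single count. In DU145 the control had 120, 108 and 105 counts, gRNA 2 had 91, 96 and 94 and gRNA 10 had 84, 104 and 95. Those log2 values, -0.16 and -0.18 (SE 0.14 each), did not pass the test (edgeR adjusted p 0.420 and 0.345).

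TCF7 rose strongly in PC3. It had 60, 73 and 69 counts in the control, 434, 436 and 441 with gRNA 2 and 786, 809 and 764 with gRNA 10. The 3 groups did not overlap and replicates lay close together. TCF7 rose by 2.68 with gRNA 2 (SE 0.09, edgeR adjusted p 2.55e-21) and by 3.50 with gRNA 10 (SE 0.08, edgeR adjusted p 8.30e-26). In 22Rv1 it fell, from 157, 140 and 173 counts to 112, 98 and 79 with gRNA 1 and 114, 99 and 98 with gRNA 10. On the log2 scale TCF7 fell by 0.66 with gRNA 1 and by 0.65 with gRNA 10, each with an SE of 0.15 (edgeR adjusted p 0.00416 and 0.00486). So LEF1 rose and TCF7 fell in the same 22Rv1 libraries. In DU145 the control had 459 to 488 counts, gRNA 2 had 410 to 572 and gRNA 10 had 392 to 438, and neither passed the test against the control. Without the gRNA 2 library that stands apart, TCF7 was higher there by 0.28 (edgeR adjusted p 0.0133).

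TCF7 lies on chromosome 5 at 134114711 to 134151865, and its surroundings moved with it in PC3. Of the 63 genes tested within 5 Mb, 55 were called higher with gRNA 2 and 44 with gRNA 10, with median log2 fold changes of 0.56 and 0.51. TCF7's own values were far above these medians. The part of the region in TCF7's rise was not tested. The tail of TCF7 overlaps SKP1, a ubiquitin ligase subunit on the other strand with 1547 to 2538 counts in PC3. Libraries were strand-specific, but the sources used here do not give the strand setting of the counting, so reads of overlapping genes cannot be told apart. LEF1-AS1, antisense to LEF1, had at most 5 counts in PC3 and 4 in 22Rv1.

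SP5 (chromosome 2, 170715351 to 170718078), a zinc finger factor and direct beta-catenin target, was the only member called in opposite directions by the 2 guides of a line. In PC3 it had 28, 18 and 21 counts in the control, 50, 58 and 80 with gRNA 2 and 11, 13 and 14 with gRNA 10. The groups were separate, gRNA 2 above the control and gRNA 10 below. SP5 rose by 1.47 with gRNA 2 (SE 0.21, edgeR adjusted p 5.83e-07) and fell by 0.86 with gRNA 10 (SE 0.31, edgeR adjusted p 0.0137). The guides differed by 2.33 (SE 0.24, edgeR adjusted p 6.37e-10). The fall was lost without PC3 control replicate 1 (edgeR adjusted p 0.0887). In DU145, SP5 had 59, 87 and 85 counts in the control, 80, 65 and 92 with gRNA 2 and 44, 55 and 43 with gRNA 10. Its fall of 0.65 with gRNA 10 (SE 0.23, edgeR adjusted p 0.0482) was lost in 10 of 15 alternatives. In 22Rv1 all libraries held 13 to 22 counts and overlapped.

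**Figure D3:**
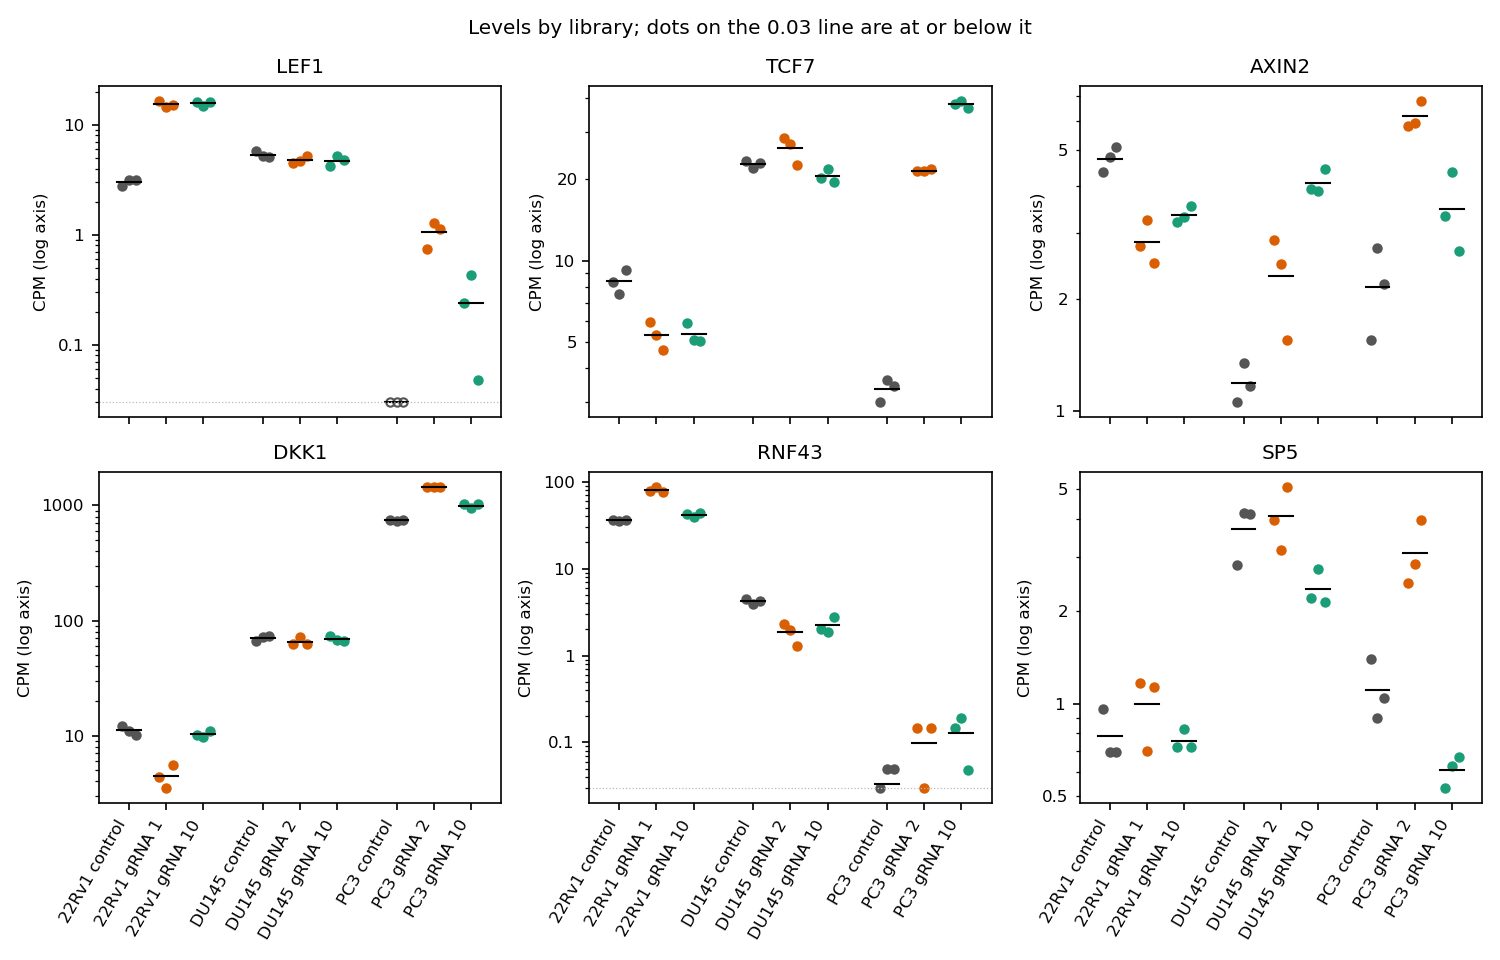
LEF1, TCF7, AXIN2, DKK1, RNF43 and SP5 in each of the 27 libraries (dots, TMM-scaled CPM on log axes that differ between panels) with group means (lines). LEF1 is at 0 in the PC3 control (open dots), TCF7 is lowest there, and AXIN2 falls in 22Rv1 where it rises in DU145 and PC3.

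Counted over the 9 members other than NKD2, the shares called have to be read against how much of the transcriptome was called (edgeR adjusted p below 0.05). In 22Rv1 gRNA 1 changed 6 members where 48.5% of all genes tested were called: LEF1 and RNF43 rose (25.6% of all genes did), and AXIN2, TCF7, DKK1 and ZNRF3 fell (22.9%). With gRNA 10 LEF1 rose and AXIN2 and TCF7 fell (20.6% of all genes fell), 3 members against 40.6% called. In DU145 gRNA 2 changed 2 members against 34.0%, with AXIN2 up (17.1%) and RNF43 down (17.0%). DU145 gRNA 10 changed 5 against 40.0%, with NKD1 and AXIN2 up (20.2%) and DKK3, RNF43 and SP5 down (19.8%). In PC3 gRNA 2 changed 5 against 63.6%, and AXIN2, LEF1, TCF7, DKK1 and SP5 all rose (32.1% of all genes rose and 31.5% fell). PC3 gRNA 10 changed 6 against 73.5%, with AXIN2, LEF1, TCF7, DKK1 and ZNRF3 up (37.9%) and SP5 down (35.6%). The filter on low counts was passed by 7 of the 9 in 22Rv1, 9 in DU145 and 6 in PC3. A member that passed the filter only through the group where it is high had to differ, so nothing is read from these counts about the members as a group.

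Over the members that passed the filter, the median log2 fold change was -0.66 with 22Rv1 gRNA 1 and -0.10 with gRNA 10, and the median over all genes was 0.02 and 0.00. In DU145 it was -0.10 and -0.15, where all genes had 0.01 and 0.00. In PC3 it was 1.49 with gRNA 2 and 0.55 with gRNA 10, where all genes had 0.01 and 0.01. Those PC3 medians are the same with LEF1 set at its lower bound. LEF1 passed the filter in PC3 only through the gRNA 2 group, where it is high. Its place among the higher values was therefore fixed in advance, and nothing is read from these medians about the members as a group. Between the guides of a line, 3 members differed in 22Rv1 (background 35.6%): RNF43 was higher with gRNA 1 (18.8%), and DKK1 and ZNRF3 were lower (16.8%). In DU145 4 differed (background 38.8%), with TCF7 and SP5 higher (19.2%) and NKD1 and AXIN2 lower (19.6%) with gRNA 2 than with gRNA 10. The TCF7 call was lost in a fit of the compared groups alone and without gRNA 2 replicate 1, gRNA 10 replicate 1 or gRNA 10 replicate 3 (edgeR adjusted p 0.0785, 0.0703, 0.0793 and 0.101). The SP5 call was lost without gRNA 10 replicate 1 or 3 (edgeR adjusted p 0.0786 and 0.0883), and the AXIN2 call without gRNA 10 replicate 3 (edgeR adjusted p 0.0566). In PC3 5 differed (background 73.4%), with AXIN2, LEF1, DKK1 and SP5 higher (36.5%) and TCF7 lower (36.9%) with gRNA 2. Both guides of a line are compared with the same control libraries.

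**Figure D4:**
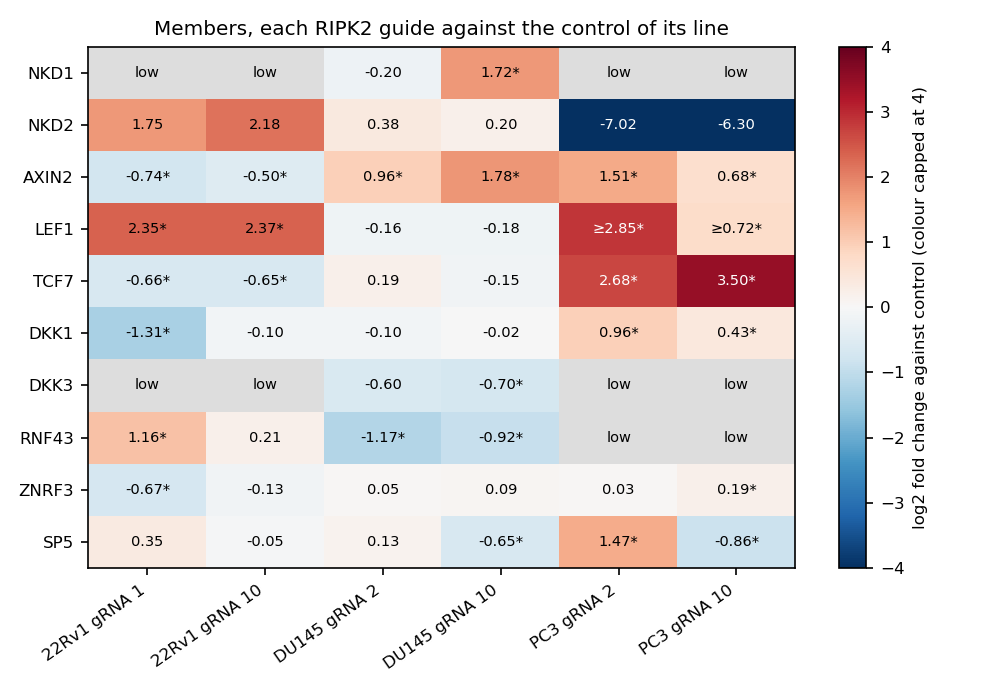
Log2 fold change of each member with each RIPK2 guide against the control of its line. Stars mark edgeR adjusted p below 0.05, "low" marks members that did not pass the filter, LEF1 in PC3 is drawn at its lower bound, and NKD2 in 22Rv1 and PC3 carries no test; AXIN2, LEF1 and TCF7 change sign or vanish from line to line.

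Before any knockout the lines already differed in these genes. In 1 edgeR model of the 27 libraries, all 9 members other than NKD2 were called different between the 22Rv1 and DU145 controls (background 75.9%), with AXIN2, RNF43 and ZNRF3 higher in 22Rv1 (38.0%) and the other 6 lower (37.9%). Between the 22Rv1 and PC3 controls 7 were called (background 80.5%), with AXIN2, LEF1, TCF7, RNF43 and ZNRF3 higher in 22Rv1 (41.1%) and DKK1 and SP5 lower (39.4%). Between the DU145 and PC3 controls 8 were called (background 75.9%), with AXIN2 and DKK1 lower in DU145 (37.1%) and the other 6 higher (38.8%). The SP5 call between 22Rv1 and PC3 (edgeR adjusted p 0.0474) was lost in 15 of 24 alternatives. Per kilobase of exon, DKK1 was the most abundant member in the DU145 control, at 31.8 CPM per kb, and in the PC3 control, at 337. ZNRF3 led the 22Rv1 control at 5.53, beside DKK1 at 5.03 and RNF43 at 4.80. NKD2 came next after DKK1 in DU145, at 8.62, and in PC3, at 3.23. LEF1, RNF43, NKD1 and DKK3 were at 2 counts or fewer in every PC3 control library. DKK3 and NKD1 were at 3 counts or fewer in every 22Rv1 control library, against at least 365 and 108 in DU145. Members at so few counts in a line passed the filter of this model through groups where they are high. Such a member had to differ from a line where it is high, so nothing is read from these counts about the members as a group.

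**Figure D5:**
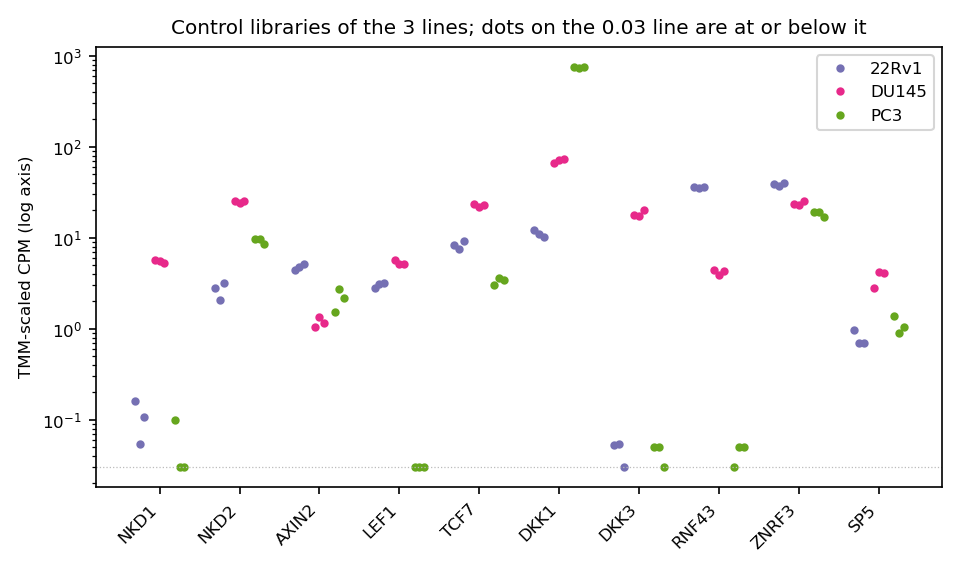
The 10 members in the control libraries of 22Rv1, DU145 and PC3 (dots, TMM-scaled CPM on a log axis, 3 libraries per line). The DKK1 means are 743 (PC3), 70.1 (DU145) and 11.1 (22Rv1), while LEF1, RNF43, NKD1 and DKK3 sit at or near 0 in PC3.

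The knockout effect was tested for a difference between lines in the same model. The effect was the mean of both RIPK2 guides minus control. A called difference can be one of size as well as of direction. 22Rv1 and DU145 differed for 6 of the 9 members (background 47.1%), of which LEF1 and RNF43 had the higher value in 22Rv1 (23.5%) and 4 the lower (23.6%). 22Rv1 and PC3 differed for 6 (background 45.3%), all lower in 22Rv1 (22.0%, against 23.3% higher). Of these, NKD1 had at most 4 counts in 22Rv1 and 11 in PC3, and its call was lost without 22Rv1 control replicate 1 (edgeR adjusted p 0.0659). LEF1 was at 0 in the PC3 control. DU145 and PC3 differed for 5 (background 42.2%), all lower in DU145 (20.9%, against 21.3% higher). DKK3 and RNF43 entered through the other lines, with at most 4 counts in any PC3 library. The DKK3 call was lost without PC3 control replicate 3 and the RNF43 call without PC3 control replicate 1 (edgeR adjusted p 0.0636 and 0.053). That leaves TCF7 and DKK1 with counts well above the floor in both lines. AXIN2 differed between 22Rv1 and DU145 by -1.99 (SE 0.27, edgeR adjusted p 9.96e-07) and between 22Rv1 and PC3 by -1.70 (SE 0.25, edgeR adjusted p 3.20e-06). Its DU145 and PC3 effects did not differ by the test (0.29, SE 0.28, edgeR adjusted p 0.435). RNF43 differed between 22Rv1 and DU145 by 1.73 (SE 0.20, edgeR adjusted p 8.47e-08). In 22Rv1, RNF43, DKK1 and ZNRF3 were called with gRNA 1 only, so the mean of both guides joins unlike values for them. TCF7 differed between 22Rv1 and PC3 by -3.72 (SE 0.14, edgeR adjusted p 6.20e-17) and between DU145 and PC3 by -3.05 (SE 0.13, edgeR adjusted p 1.72e-15).

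The wider pathway was described with 7 lists of 99 genes: ligands, receptors, R-spondins with LGR receptors, other secreted inhibitors, the Dishevelled and destruction complex components, nuclear partners of beta-catenin, and other target genes. In 22Rv1, 74 were tested, of which gRNA 1 raised 15 and lowered 25, and gRNA 10 raised 16 and lowered 18. In DU145, 77 were tested, with 16 up and 19 down for gRNA 2 and 28 up and 12 down for gRNA 10. In PC3, 69 were tested, with 24 up and 29 down for gRNA 2 and 33 up and 29 down for gRNA 10. Called with both guides in 1 direction were 19 genes in 22Rv1 (9 up and 10 down), 16 in DU145 (10 up and 6 down) and 38 in PC3 (18 up and 20 down). Over all 7 lists the share called was 54.1% and 45.9% in 22Rv1, 45.5% and 51.9% in DU145 and 76.8% and 89.9% in PC3, to be read beside the shares of all genes given above. Directions were mixed.

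Among the other target genes, 12 of 14 were tested in DU145. With gRNA 2, 8 rose and 1 fell, where 17.1% of all genes rose and 17.0% fell. With gRNA 10, 10 rose and 1 fell, where 20.2% rose and 19.8% fell. The list medians were 0.75 and 0.85. SOX9, a transcription factor of progenitor and tumour cells, rose most, from 0.772 ± 0.0879 CPM in the DU145 control to 10.3 ± 4.37 with gRNA 2 and 7.36 ± 0.537 with gRNA 10. Its log2 fold changes were 3.73 and 3.24 (edgeR adjusted p 2.49e-05 and 3.59e-05). SOX9 also rose in 22Rv1, from 9.90 ± 0.201 to 69.3 ± 28.2 and 44.7 ± 2.34 CPM (log2 2.81 and 2.17, edgeR adjusted p 1.75e-05 and 0.000103). In PC3 its log2 values were -0.14 and 0.07. TNFRSF19, a receptor of the TNF family, rose in DU145 by 1.55 and 2.97 (edgeR adjusted p 0.00433 and 3.82e-05) and in PC3 by 3.31 and 1.45 (edgeR adjusted p 3.10e-18 and 9.16e-08). The same list in PC3 was split, with 5 up and 7 down for gRNA 2 and 6 up and 5 down for gRNA 10. ID2, an inhibitor of helix-loop-helix factors in that list, fell there from 78.2 ± 4.18 to 24.6 ± 0.419 and 18.4 ± 1.96 CPM. In the other lines its guides pointed opposite ways, at 0.83 and -1.53 in 22Rv1 and -0.58 and 0.93 in DU145 (log2). In 22Rv1 the target list was also split (5 up and 5 down, then 4 up and 2 down), and EPHB2, an ephrin receptor, fell from 13.6 ± 1.62 to 4.69 ± 0.437 and 6.31 ± 0.308 CPM. EPHB2 was at 0.50 and 0.69 in DU145 and at -0.23 and 0.12 in PC3 (log2).

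Of the ligands, 10 of 19 were tested in PC3, of which 9 rose and 1 fell with gRNA 10 (37.9% of all genes rose and 35.6% fell), and 4 rose and 2 fell with gRNA 2 (32.1% and 31.5%). WNT4 rose from 0.929 ± 0.126 CPM to 3.45 ± 0.275 with gRNA 2 and 10.4 ± 0.616 with gRNA 10 (log2 1.89 and 3.47, edgeR adjusted p 4.06e-10 and 3.59e-19). The 100 genes tested within 5 Mb of WNT4 were called higher in 85 and 79 cases, with medians of 0.48 and 0.45, below the values of WNT4 itself. In DU145 WNT3 fell by 1.20 and by 1.33 on the log2 scale (edgeR adjusted p 8.58e-05 and 2.57e-05). Its values went the other way in PC3 (0.96 and 0.37) and in 22Rv1 (1.01 and 1.27, with 43 counts at most in any library). Of the secreted inhibitors, WIF1, which binds WNT proteins, rose in 22Rv1 by 3.55 and 2.15 (edgeR adjusted p 2.68e-05 and 0.00120). TRABD2A, a membrane protease that inactivates WNT proteins, fell in PC3 from 9.09 ± 0.272 CPM to 3.48 ± 0.613 and 0.514 ± 0.247. TLE2, a Groucho-type corepressor, fell in DU145 from 121 ± 4.58 CPM to 26.2 ± 13.1 and 44.6 ± 3.07.

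CTNNB1, the beta-catenin gene, fell in 22Rv1 from 782 ± 22.5 CPM to 394 ± 68.1 with gRNA 1 and 396 ± 5.74 with gRNA 10 (log2 -0.99 and -0.98, edgeR adjusted p 6.84e-05 and 7.81e-05). Its region was lower too: the 75 genes tested within 5 Mb on chromosome 3 had medians of -0.80 and -0.75, with 51 and 54 called lower. In PC3, CTNNB1 rose by 0.42 and 0.49 (edgeR adjusted p 8.75e-12 and 1.53e-13), where the 74 genes around it had medians of 0.34 and 0.57. The part of the region in these values was not tested.

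NKD2's pattern was compared with that of every other gene as a description. Over the 27 libraries the highest Pearson r of log2 CPM was with FKBP15 (0.918), TFPI (0.911), PTPRG (0.896), DMTF1 (0.892) and NEO1 (0.888). Over the 6 differences of a RIPK2 group from its control it was with GBP1P1 (0.997), LINC00630 (0.996), NEO1 (0.995), EHD2 (0.995) and LRRIQ1 (0.993). NEO1, a netrin and RGM receptor, was in both lists. The 6 differences share control libraries within a line and are dominated by the step between PC3 and the rest. Over the 27 libraries it is only the PC3 knockout libraries, not the PC3 control, that lie far below the others in NKD2. Both measures use the NKD2 values that chose the gene, so no conclusion is drawn from them. Of the other members, TCF7 had the lowest r over the 6 differences, at -0.98. NKD1 was at -0.72, with at most 4 counts in any 22Rv1 library and 11 in any PC3 library.

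Other cell type markers moved with some groups. Summed fibroblast and stromal markers (DCN, LUM, PDGFRA, COL3A1 and ACTA2) were at 45.8 to 47.7 CPM in the PC3 control, 12.6 to 15.6 with gRNA 2 and 18.04 to 20.7 with gRNA 10 (LUM was at 0 in the knockout groups and at 1 count at most in the control). COL3A1 and PDGFRA made up nearly all of this PC3 sum, with ACTA2 at 0.89 CPM at most and DCN at 2 counts at most. In 22Rv1 the same sum was at 2.57 to 2.88 CPM in the control, 10.0 to 13.8 with gRNA 1 and 5.25 to 6.30 with gRNA 10. Over the 22Rv1 libraries ACTA2 ran from 0.214 to 9.86 CPM, and each other marker in the sum reached 2.28 CPM at most. Summed endothelial markers (PECAM1, VWF and CDH5) were at 1.75 to 2.20 CPM in the PC3 control, 8.76 to 9.85 with gRNA 2 and 6.09 to 8.03 with gRNA 10, and at or below 1.65 CPM in the other lines. The PC3 rise of this sum was that of PECAM1 alone (1.66 to 9.75 CPM over the PC3 libraries). VWF and CDH5 had 2 counts at most in any PC3 library. Summed epithelial markers (EPCAM, KRT8, KRT18 and CDH1) were higher in every knockout group. In DU145 they were at 829.5 to 859.9 CPM in the control, 1499 to 2540 with gRNA 2 and 1435 to 1547 with gRNA 10. In PC3 they were at 719.3 to 739.9, 926.4 to 976.0 and 1668 to 1784 CPM, and in 22Rv1 at 815.9 to 868.6, 932.7 to 1042 and 1049 to 1079 CPM. KRT8 and KRT18 made up most of the PC3 sum, where EPCAM reached 44.8 CPM and CDH1 21.3 CPM at most. The part of these cell type markers in the member values was not tested.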

How the data were processed

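Total RNA of 22Rv1, DU145 and PC3 cells was made into strand-specific mRNA libraries and read as paired ends of 150 bases, per the labels' protocols. The authors deposited raw read counts, 1 table per line. FastQC, STAR, edgeR and hg38 are named in the submitters' processing notes, while their versions, the counting program and the annotation are not given in the sources used here. Columns were matched to samples by library name, and replicate numbers follow the sample titles. Symbols listed more than once (6 in 22Rv1, 2 in DU145, 2 in PC3) were summed. Depth ran from 17958558 to 20650819 counts per library.

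Counts were tested with edgeR 4.0.16 in R 4.3.3: filterByExpr (minimum count 10, minimum total 15), TMM factors, robust quasi-likelihood F test (two-sided), group as the only term, the 9 libraries of a line together, and Benjamini-Hochberg adjustment over all genes tested (threshold 0.05). Genes tested numbered 15198 (22Rv1), 14908 (DU145) and 14718 (PC3). Lines were compared in 1 model of the 27 libraries over 16322 genes. CPM are counts scaled by TMM within a line, except those of cell type markers and of the 3-count floor, which are relative to the plain library total. Groups whose libraries were all at 0 were set at 3 counts per library, and ratios of 1 to 3 counts carry exact binomial intervals for counting error only. DESeq2 1.42.0, RLE factors, other filters, other library sets and a replicate block were tried as alternatives. Gene positions and exon lengths are from GENCODE 29, promoters from RefSeq.

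The members and lists were chosen with earlier results of these data known. Pathway genes outside the members are named by a rule: in each line, the 2 rises and 2 falls whose smaller change was largest, among genes that reached 100 mean counts in a group and were called the same way with both guides. Also named are the 3 nearest listed genes on each side of NKD2 and the 5 genes most correlated with it by each of the measures given. Results for some marker genes are not reported here.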

Additional observations from a re-analysis of the deposited data

Results flagged for a closer look

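Differences of the knockout effect between lines that passed the edgeR test of the difference itself are listed here. The values are log2 differences, the first line minus the second, of the mean of both RIPK2 guides against control. Groups of 3 libraries are too small for a test of an outlying sample.

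Between 22Rv1 and DU145 the values were -1.99 for AXIN2, 2.53 for LEF1, -0.67 for TCF7, -0.65 for DKK1, 1.73 for RNF43 and -0.47 for ZNRF3. AXIN2 and RNF43 moved in opposite directions in these lines. In 22Rv1, RNF43, DKK1 and ZNRF3 were called with gRNA 1 only, so their means join unlike guides. Their log2 values there were 1.16, -1.31 and -0.67 with gRNA 1 and 0.21, -0.10 and -0.13 with gRNA 10. With gRNA 10 in DU145, RIPK2 itself was not called lower (edgeR adjusted p 0.0614). Between 22Rv1 and PC3 the values were -1.70 for AXIN2, -3.72 for TCF7, -1.38 for DKK1 and -0.50 for ZNRF3. LEF1 (-4.06) and NKD1 (-4.76) also passed, but LEF1 was at 0 in the PC3 control and NKD1 at 4 counts or fewer in all 22Rv1 libraries, so the size of these values depends on the fit and is no bound. LEF1 was higher than its control in both lines, though its PC3 calls carry little weight, since it passed the filter there only through the gRNA 2 group. Between DU145 and PC3 the values were -3.05 for TCF7 and -0.73 for DKK1. LEF1 (-6.59), DKK3 (-2.80) and RNF43 (-2.63) passed too, with at most 4 DKK3 or RNF43 counts in any PC3 library and none of LEF1 in the PC3 control.

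Of these calls, 3 rested on 1 control library. NKD1 between 22Rv1 and PC3 was lost without 22Rv1 control replicate 1 (-4.37, edgeR adjusted p 0.0659), RNF43 between DU145 and PC3 without PC3 control replicate 1 (-2.12, edgeR adjusted p 0.053), and DKK3 between DU145 and PC3 without PC3 control replicate 3 (-2.30, edgeR adjusted p 0.0636).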

How the results depend on the processing

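Of the values for single genes, 2774 stayed the same under an alternative, 56 lost the call, 26 gained it, 28 changed sign and 1 moved. Staying the same meant keeping direction and side of the threshold. NKD2 carries no test outside the DU145 guide comparisons. There it meant the same sign and a shift within the largest SD of log2 CPM of the groups compared. That SD is wide for 22Rv1 gRNA 1. The value that moved was NKD2 with PC3 gRNA 2, at -7.39 without gRNA 2 replicate 2 and -7.02 with it. Of the counts of members called, 265 stayed within 1.5 times the main count and 14 did not. With 1 library left out, the members called ranged from 1 to 4 for DU145 gRNA 2, 3 to 5 for DU145 gRNA 10 and 1 to 5 between the DU145 guides. Requiring 10 counts in every library left 5 called between the 22Rv1 and DU145 controls, 5 between the DU145 and PC3 controls and 2 for the knockout effect in DU145 against PC3, since fewer members were tested. The replicate block left 3 for DU145 gRNA 10, where DKK3 and SP5 missed the threshold. Replicate numbers here, also in the block, are those of the sample titles. They gave no clear pairing: same-numbered libraries correlated at -0.08 to 0.34 in 22Rv1, -0.19 to 0.07 in DU145 and -0.05 to 0.06 in PC3. In these lines 2, 3 and 4 of 9 libraries correlated best with their own number. Library names number some replicates otherwise, and a pairing by those numbers was not examined.

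The changes of sign were all in values that did not pass the test. TCF7 between the 22Rv1 guides was 0.014 at 10 counts in every library, and DKK3 for the knockout effect in 22Rv1 against DU145 was -0.43 without both libraries that stand apart, an alternative chosen after seeing the data. With 1 library left out, the ranges against control were -0.13 to 0.12 for SP5 with 22Rv1 gRNA 10. With DU145 gRNA 2 they were -0.63 to 0.16 for NKD1, -0.10 to 0.16 for ZNRF3 and -0.056 to 0.285 for SP5. They were -0.068 to 0.016 for DKK1 with DU145 gRNA 10 and -0.027 to 0.11 for ZNRF3 with PC3 gRNA 2. Between the 22Rv1 guides they were -0.077 to 0.011 for LEF1 and -0.10 to 0.061 for TCF7. Between the DU145 guides they were -0.047 to 0.40 for NKD2, -0.15 to 0.40 for DKK3, -0.19 to 0.070 for ZNRF3 and -0.052 to 0.094 for LEF1. Between lines they were -0.35 to 0.033 for the SP5 effect in 22Rv1 against PC3, -0.55 to 0.47 for DKK3 between those controls, -0.27 to 1.03 for the DKK3 effect in 22Rv1 against DU145, and -0.11 to 0.026 for the ZNRF3 effect in DU145 against PC3. The cause was not tested.

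Over all genes, DU145 gRNA 2 called 5072 genes, 3335 from the compared groups alone, 3259 without control replicate 1 and 3329 without control replicate 3. DU145 gRNA 10 called 5956, and 9749 from the compared groups alone. Members at a few counts (NKD1 and DKK3 in 22Rv1 and PC3, RNF43 and LEF1 in PC3) are limited by depth.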
